A study of Mus musculus with 6 samples.

Results

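The genes described here encode 6 inhibitors of cyclin-dependent kinases (CDKs), the enzymes that drive the cell cycle: Cdkn2a, Cdkn2b, Cdkn2c and Cdkn2d of the INK4 family, and Cdkn1a and Cdkn1b of the CIP/KIP family. They were chosen by name, as the rows of the deposited gene table with these symbols, and all 6 were found among its 23358 entries. All 6 also passed the filter on low counts, which left 16280 genes for testing. RNA was measured by sequencing in micromasses, small high-density cultures in which cartilage matrix forms, of immature mouse chondrocytes. Wildtype and Ezh2-deficient micromasses were sampled after 3, 7 and 14 days, with 1 library per genotype and day and 6 libraries in all.

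Cells of all groups came from the tibial plateau and from the head and condyles of the femur of mice at post-natal day 5, of a strain given as C57BL/6 - mix. All were maintained in DMEM with 2% FBS, and all micromasses received insulin, transferrin and selenium with ascorbic acid at 0.05 mg/mL and β-glycerol phosphate at 10 mM. The groups were thus wildtype at day 3, day 7 and day 14, and Ezh2-deficient at the same days. Ezh2-deficient libraries are titled Ezh2_cKO, for a conditional knockout. The sources used here do not give the Cre driver, the deleted part of the gene or how many animals went into a library. Ezh2 is the methyltransferase of PRC2, a Polycomb complex that keeps target genes silent by methylating histone H3. No label says whether libraries came from separate cultures or animals, so p-values measure only the spread between these libraries, with days standing in for replicates of a genotype and genotypes for replicates of a day.

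INK4 proteins bind CDK4 and CDK6 and keep them from pairing with D-type cyclins, which leaves the retinoblastoma protein in its unphosphorylated, E2F-binding form. CIP/KIP proteins bind whole cyclin-CDK complexes, mainly those of CDK2. The Cdkn2a-Cdkn2b locus is a textbook target of Polycomb silencing that opens as cultured cells age, and Cdkn1a is a direct target of p53. In growth plate cartilage, CIP/KIP proteins take part in the exit from the cell cycle that comes before hypertrophy.

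Libraries held from 51985214 to 79323302 counts, and the Ezh2-deficient library was the deeper one on each day. All counts were even, so 1 fragment is taken as 2 counts. Levels are given as CPM, each gene's counts relative to the library total after TMM scaling of that total, and a floor of 3 fragments lay between 0.0756 and 0.115 CPM. The 95% intervals given for levels and ratios are exact and hold the error of counting alone. Without molecular identifiers, reads may be copies of one molecule. At every day Ezh2 itself was lower in Ezh2-deficient cells (24.7 against 14.7, 40.2 against 23.0 and 27.9 against 17.6 CPM at days 3, 7 and 14), and this difference did not pass (log2 fold change -0.74 ± 0.08 (SE), adjusted p = 0.0729 by edgeR). Cartilage markers were abundant in every library, all 8 of 8 being detected with a summed level falling from about 113700 and 110500 CPM at day 3 to 31120 and 17620 CPM at day 14 (wildtype and Ezh2-deficient). The 4 Y-linked genes together were 90.8, 62.5 and 60.6 CPM in wildtype and 122, 131 and 171 CPM in Ezh2-deficient libraries at days 3, 7 and 14, higher in the Ezh2-deficient library on all 3 days. Xist, also sex-linked, went the other way, at 1065, 1130 and 1222 CPM in wildtype and 842, 677 and 513 CPM in Ezh2-deficient cultures. Y-linked and Xist RNA were thus both present in all 6 libraries, and their balance differed with genotype and day. None of these 5 genes passed between genotypes. Whether a differing mix of male and female cells has a part in the results was not tested.

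Cdkn2a and Cdkn2b lie side by side on mouse chromosome 4, and their promoters are shown because these 2 genes had the largest changes with culture time among the 6. In the deposited table (mm10) Cdkn2a spans 89274473 to 89294619 and Cdkn2b 89306289 to 89311032, both on the minus strand in GENCODE M21, with a gap of 11670 bases between them. Cdkn2a has 2 start sites 12427 bases apart. The outer one begins the transcript for ARF, the inhibitor of MDM2, and the inner one begins the transcript for INK4A, and both splice into shared downstream exons read in different frames. The table gives 1 count for the whole gene, so the 2 products could not be told apart. The 250 bases before each start are given below from RefSeq (GRCm38.p6, the build of mm10), 5′ to 3′ on the minus strand, for Cdkn2a at chr4:89294620-89294869 (outer) and chr4:89282193-89282442 (inner), and for Cdkn2b at chr4:89311033-89311282. Capitals mark GC boxes (GGGCGG) and the cyclic AMP response element (TGACGTCA), searched on both strands.
Cdkn2a outer start: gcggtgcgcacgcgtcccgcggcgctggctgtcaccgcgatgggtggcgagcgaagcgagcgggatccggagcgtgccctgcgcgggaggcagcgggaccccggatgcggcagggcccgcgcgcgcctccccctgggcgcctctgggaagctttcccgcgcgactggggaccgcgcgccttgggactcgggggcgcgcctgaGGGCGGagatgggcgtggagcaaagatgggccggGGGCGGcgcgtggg
Cdkn2a inner start: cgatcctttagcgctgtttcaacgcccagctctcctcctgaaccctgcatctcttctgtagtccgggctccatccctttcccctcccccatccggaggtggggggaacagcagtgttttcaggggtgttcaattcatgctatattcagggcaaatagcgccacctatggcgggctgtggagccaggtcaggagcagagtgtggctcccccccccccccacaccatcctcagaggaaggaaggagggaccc
Cdkn2b start: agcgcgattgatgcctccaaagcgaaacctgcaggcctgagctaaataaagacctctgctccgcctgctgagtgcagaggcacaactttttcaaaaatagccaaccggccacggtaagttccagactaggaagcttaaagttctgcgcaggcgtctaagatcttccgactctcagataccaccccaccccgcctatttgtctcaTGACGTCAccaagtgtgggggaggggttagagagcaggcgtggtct

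The 3 windows differed in base composition. The outer Cdkn2a window had 78.4% G and C and 40 CpG dinucleotides, more CpG than 98.7% of 32851 RefSeq windows of this length, and held 2 GC boxes. The inner Cdkn2a window had 60% G and C and 7 CpG, and the Cdkn2b window 53.6% and 12, against medians of 52.4% and 6 over all windows. A GC box was found in 32.7% of all windows and in neither of the latter 2. The cyclic AMP response element was found in the Cdkn2b window, 46 bases before the start, and in 1.55% of all windows. All 6 genes matched RefSeq, with 9 starts in all, and none of the 9 windows held TATAAA, which 12.4% of all windows did. These matches describe the letters only.

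Cdkn2a had the lowest level of the 6 genes at day 3 and the largest rise with culture time. It was 0.667, 7.35 and 21.8 CPM in wildtype and 1.05, 13.0 and 25.5 CPM in Ezh2-deficient libraries at days 3, 7 and 14. Both libraries of day 14 lay above both of day 7, and both of day 7 above both of day 3, so the days did not overlap. The wildtype value at day 3 rested on 22 fragments and the Ezh2-deficient one on 39, all above the floor. From day 3 to day 7 Cdkn2a rose by 3.55 ± 0.21 (log2, SE; adjusted p = 0.000501 by edgeR), and from day 7 to day 14 by 1.27 ± 0.18 (adjusted p = 0.0218). The second step did not pass in limma-voom (1.22, adjusted p = 0.105). Over the whole span the rise was 4.81 ± 0.22 (adjusted p = 0.000163), which was 32.6-fold in wildtype (95% interval 21.3 to 52.5) and 24.3-fold in Ezh2-deficient libraries (17.6 to 34.4).

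Between genotypes, Cdkn2a was higher in the Ezh2-deficient library on all 3 days. The ratio was 1.57 at day 3 (95% interval 0.909 to 2.78), 1.77 at day 7 (1.52 to 2.07) and 1.17 at day 14 (1.05 to 1.31). The interval of day 3 includes 1, and those of days 7 and 14 do not overlap each other. Over the 3 days together the log2 difference was 0.55 ± 0.16 (SE). Its unadjusted p was 0.0147 and its edgeR adjusted p was 0.269, so it did not pass.

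Cdkn2b encodes INK4B, an inhibitor known as a target of TGF-beta signalling. Its levels were 6.40, 17.0 and 28.4 CPM in wildtype and 5.57, 29.9 and 34.0 CPM in Ezh2-deficient libraries at days 3, 7 and 14. Both day 3 libraries were lowest, and the Ezh2-deficient library of day 7 was slightly above the wildtype library of day 14. The rise from day 3 to day 7 was 1.92 ± 0.25 (log2, SE; adjusted p = 0.00402 by edgeR), while day 14 against day 7 did not pass (0.44 ± 0.24, adjusted p = 0.331). Over the whole span the rise was 2.36 ± 0.25 (adjusted p = 0.0014). The first step was 2.66-fold in wildtype (95% interval 2.27 to 3.13) and 5.38-fold in Ezh2-deficient libraries (4.64 to 6.26). The second was 1.67-fold (1.495 to 1.86) and 1.14-fold (1.04 to 1.24). From the deposited RPKM values (reads scaled by coding length and library total) the second step was 1.56-fold in wildtype and 0.99-fold in Ezh2-deficient libraries.

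Cdkn2b did not differ in the same way between genotypes on each day. The ratio of Ezh2-deficient to wildtype was 0.87 at day 3 (95% interval 0.715 to 1.06), 1.76 at day 7 (1.59 to 1.94) and 1.197 at day 14 (1.09 to 1.32). The interval of day 3 includes 1. Over the 3 days together the difference was 0.31 ± 0.20 (log2, SE; adjusted p = 0.554 by edgeR). Leaving out day 7 lowered it to 0.033, and leaving out day 3 raised it to 0.54. Its trend per doubling of day was 0.21 ± 0.19 (adjusted p = 0.696). Neither passed. At day 7 the ratios of Cdkn2a and Cdkn2b, 1.77 and 1.76, were nearly equal.

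**Figure D1:**
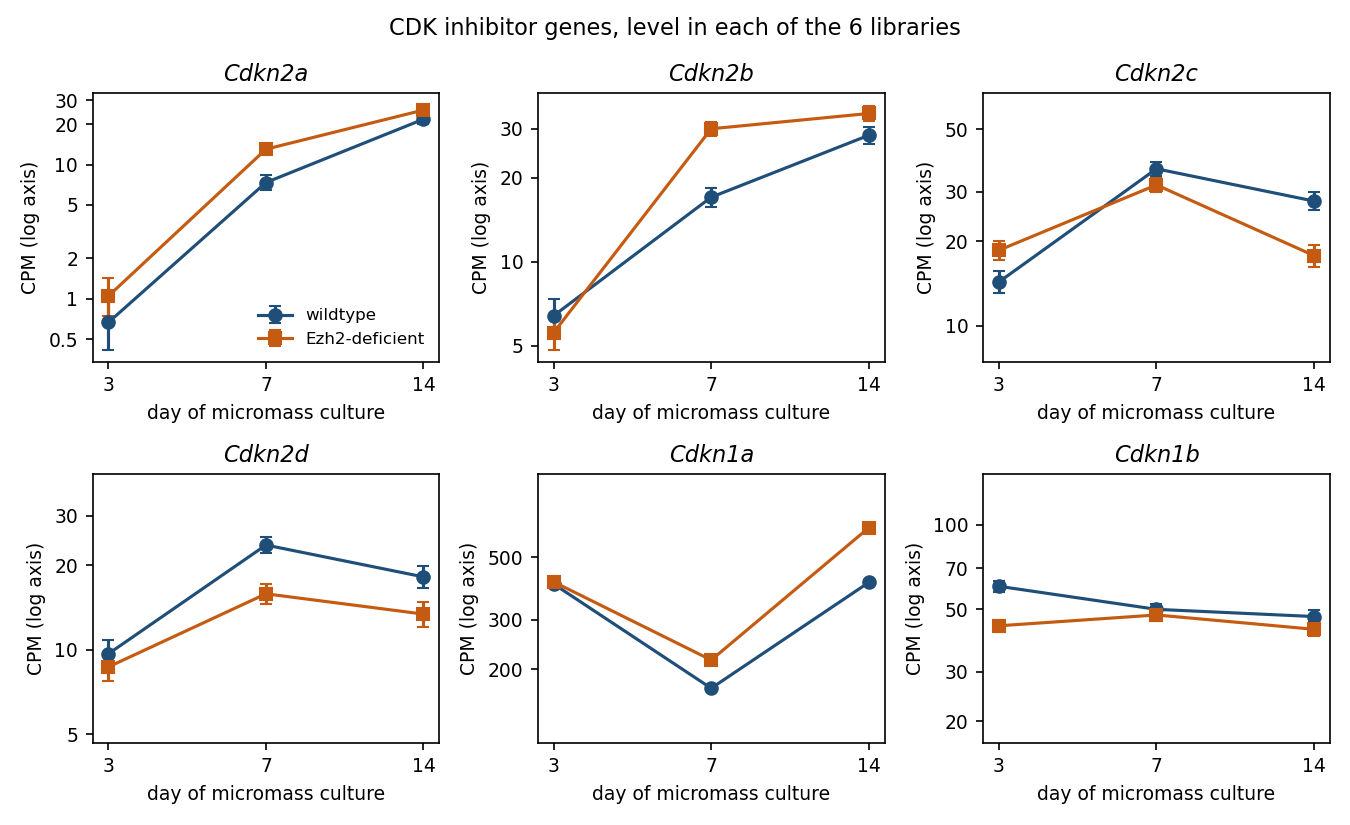
Level of each gene in CPM (log axis) against day of culture, with 1 point per library (circles wildtype, squares Ezh2-deficient) and exact 95% counting intervals as bars. Cdkn2a climbs from under 1.1 CPM at day 3 to over 21 CPM at day 14 in both genotypes, Cdkn1a dips at day 7, and Cdkn1b stays between 42.4 and 60.3 CPM.

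Cdkn2c and Cdkn2d, the INK4 genes outside the Cdkn2a-Cdkn2b locus, had their highest values at day 7, and the lower values at day 14 did not pass against day 7. Cdkn2c (chromosome 4, 109660876 to 109665372) encodes INK4C. It was 14.3, 36.2 and 27.8 CPM in wildtype and 18.6, 31.7 and 17.8 CPM in Ezh2-deficient libraries at days 3, 7 and 14. Both day 7 libraries were the highest, and the Ezh2-deficient library of day 14 had returned to its day 3 level (ratio 0.957, 95% interval 0.851 to 1.08), while the wildtype one had not (1.94, 1.73 to 2.18). The rise to day 7 passed (1.03 ± 0.24, log2, SE; adjusted p = 0.0236 by edgeR), and day 14 against day 7 did not (-0.59 ± 0.24, adjusted p = 0.216). The counted part of Cdkn2c begins at the inner of 2 RefSeq starts, so reads of the outer first exon would not be in its count.

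The genotype ratio of Cdkn2c went from above to below 1. It was 1.297 at day 3 (95% interval 1.15 to 1.46), 0.876 at day 7 (0.81 to 0.948) and 0.64 at day 14 (0.57 to 0.719), and each of these intervals excludes 1. The trend of the genotype difference was -0.46 ± 0.08 (log2 per doubling of day, SE; unadjusted p = 0.00172), and with an adjusted p = 0.0957 by edgeR it did not pass. It had the lowest adjusted p for this trend among the 6 genes. The shared difference was -0.15 ± 0.19 (adjusted p = 0.775) and was 0.093 without the day 14 pair.

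Cdkn2d (chromosome 9, 21288464 to 21291209) encodes INK4D. It was 9.68, 23.6 and 18.2 CPM in wildtype and 8.69, 15.8 and 13.4 CPM in Ezh2-deficient libraries at days 3, 7 and 14. The wildtype library was the higher one on each day, and both day 3 libraries lay below the other 4. Cdkn2d rose from day 3 to day 7 by 1.07 ± 0.15 (log2, SE; adjusted p = 0.00481 by edgeR) and was still 0.76 ± 0.15 above day 3 at day 14 (adjusted p = 0.0101). Day 14 against day 7 did not pass (-0.31 ± 0.14, adjusted p = 0.270). The genotype ratio was 0.898 at day 3 (95% interval 0.767 to 1.05), 0.671 at day 7 (0.604 to 0.745) and 0.738 at day 14 (0.642 to 0.847). The shared difference of -0.39 ± 0.12 had an unadjusted p = 0.0186 and an adjusted p = 0.285, and did not pass.

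Cdkn1a (chromosome 17, 29090986 to 29100722) encodes CIP1, the p53-inducible inhibitor. It was 402, 171 and 407 CPM in wildtype and 409, 216 and 638 CPM in Ezh2-deficient libraries at days 3, 7 and 14. Both day 7 libraries were the lowest, the 2 libraries of day 3 and wildtype at day 14 were close together, and the Ezh2-deficient library of day 14 stood above all others. The fall to day 7 was -1.09 ± 0.16 (log2, SE; adjusted p = 0.00635 by edgeR), and the rise from day 7 to day 14 was 1.41 ± 0.16 (adjusted p = 0.0141). Day 14 against day 3 did not pass (0.33 ± 0.16, adjusted p = 0.152), with a ratio of 1.01 in wildtype (95% interval 0.988 to 1.04) and 1.56 in Ezh2-deficient libraries (1.52 to 1.59).

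The genotype ratio of Cdkn1a was 1.02 at day 3 (95% interval 0.994 to 1.04), 1.26 at day 7 (1.22 to 1.302) and 1.56 at day 14 (1.53 to 1.603). The intervals of the 3 days do not overlap one another. The trend of 0.28 ± 0.07 per doubling of day (log2, SE) had an unadjusted p = 0.00971 and an adjusted p = 0.204 by edgeR, and the shared difference of 0.33 ± 0.13 had an unadjusted p = 0.0481 and an adjusted p = 0.377. Neither passed. GENCODE M21 places 1 short uncharacterised entry on the other strand within Cdkn1a, whose reads could not be told apart from its own because no source used here states whether the libraries keep strand.

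Cdkn1b (chromosome 6, 134920401 to 134925525) encodes KIP1, which is controlled to a large extent by degradation of the protein. It was 60.3, 49.9 and 47.1 CPM in wildtype and 43.6, 47.7 and 42.4 CPM in Ezh2-deficient libraries at days 3, 7 and 14. All 6 values lay within a narrow range, and the wildtype library was the higher one on each day. None of the day comparisons passed (adjusted p from 0.218 to 0.659 by edgeR). The genotype ratio was 0.724 at day 3 (95% interval 0.677 to 0.773), 0.955 at day 7 (0.894 to 1.02) and 0.901 at day 14 (0.831 to 0.977), and the shared difference of -0.23 ± 0.10 (log2, SE) did not pass (adjusted p = 0.405).

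Of the 6 inhibitors, 5 passed in at least 1 comparison of days and 0 passed between genotypes, and the shares of all genes that passed are given beside each count. From day 3 to day 7, 4 of 6 rose (Cdkn2a, Cdkn2b, Cdkn2c and Cdkn2d) and 1 fell (Cdkn1a), where 19.5% of the 16280 genes tested rose and 16.6% fell. From day 7 to day 14, 2 of 6 rose (Cdkn2a and Cdkn1a), against 3.38% of all genes, and 0 fell, against 2.29%. Day 14 was above day 3 for 3 of 6 (Cdkn2a, Cdkn2b and Cdkn2d), against 23.2% of all genes, and below it for 0 of 6, against 22.4%. Their median log2 fold change was 1.05, 0.15 and 0.60 in these comparisons, and that of all genes tested was -0.02, -0.01 and -0.02. The comparisons share libraries and are not independent of one another.

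Between genotypes 0 of the 6 passed in edgeR, where 0.0123% of all genes did. Before adjustment 3 of the 6 (Cdkn2a, Cdkn2d and Cdkn1a) had a p under 0.05 in edgeR, as had 2142 of all 16280 genes. The other tools gave 0 of 6 as well, against 3.73% of all genes in DESeq2 and 0.246% in limma-voom. Each had 3 of 6 below 0.05 before adjustment, beside 1988 of 16280 genes in DESeq2 and 2408 in limma-voom. The trend of the genotype difference with day was called for 0 of 6 in edgeR, against 0.614% of all genes. Before adjustment 2 of 6 (Cdkn2c and Cdkn1a) were below 0.05 in edgeR, as were 2167 of 16280 genes. For this trend 0 of 6 were called by DESeq2, against 2.1% of all genes, and 0 of 6 by limma-voom, against 0.547%. Again 2 of 6 were below 0.05 before adjustment in each, beside 1158 of 16280 genes in DESeq2 and 2141 in limma-voom. Within single days, where each genotype has 1 library and no test was made, 0 of the 6 differed at least 2-fold. By that rule, with at least 1 CPM and a counting interval that excludes 1, 1.81%, 2.51% and 2.58% of all genes were higher and 0.548%, 1.68% and 3.32% lower in the Ezh2-deficient library at days 3, 7 and 14.

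**Figure D2:**
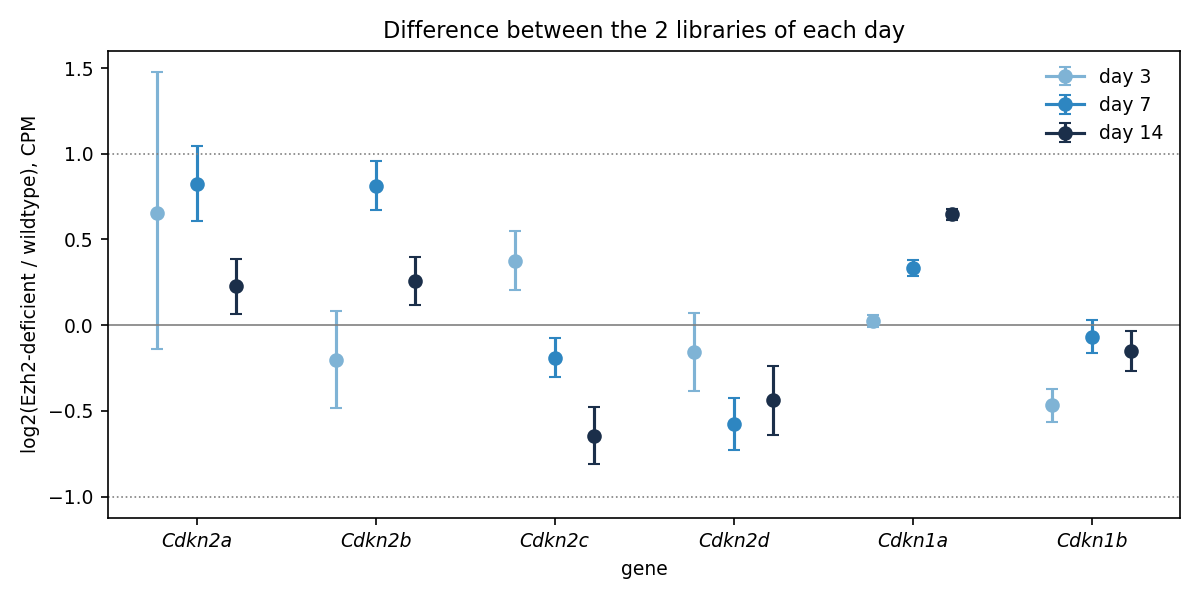
Log2 ratio of the Ezh2-deficient to the wildtype library for each gene at days 3, 7 and 14 (light to dark), with exact 95% counting intervals, which do not hold the spread between cultures. All points lie within the dotted lines at 2-fold, Cdkn2a is above 0 and Cdkn2d below 0 on each day, and Cdkn2c crosses from above to below.

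Levels of different genes can be compared only per length, which the deposited RPKM values (reads scaled by coding length and library total) give. Lengths used were 1136 (Cdkn2a), 1393 (Cdkn2b), 1106 (Cdkn2c), 1270 (Cdkn2d), 2026 (Cdkn1a) and 2405 bases (Cdkn1b). In the same order, all exons of GENCODE M21 together cover 1172, 1390, 2686, 1574, 3553 and 4552 bases. The order of the genes depends on the lengths used, and the counting intervals do not hold this uncertainty. Cdkn1a was the highest of the 6 in every library, from 73.7 to 241 RPKM, and the next gene reached at most 38.7% of it. In the wildtype library of day 3 the order below Cdkn1a was Cdkn1b (19.4 RPKM), Cdkn2c (10.03), Cdkn2d (5.90), Cdkn2b (3.56) and Cdkn2a (0.455), with no overlap of counting intervals between neighbours. At day 7 Cdkn2c was second in both genotypes (28.5 RPKM in wildtype and 25.2 in Ezh2-deficient), and the intervals of Cdkn2b and Cdkn1b overlapped in the Ezh2-deficient library, as did those of Cdkn1b and Cdkn2d in the wildtype one. At day 14 Cdkn2b, Cdkn1b and Cdkn2a in wildtype lay between 15.7 and 16.6 RPKM with overlapping intervals. In the Ezh2-deficient library of day 14 Cdkn2b (18.7 RPKM) and Cdkn2a (17.2) came next after Cdkn1a and could not be ordered, above Cdkn1b (13.5) and Cdkn2c (12.3). Cdkn2a thus went from 0.296% of the level of Cdkn1a to 9.53% in wildtype, and from 0.457% to 7.13% in Ezh2-deficient libraries.

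**Figure D3:**
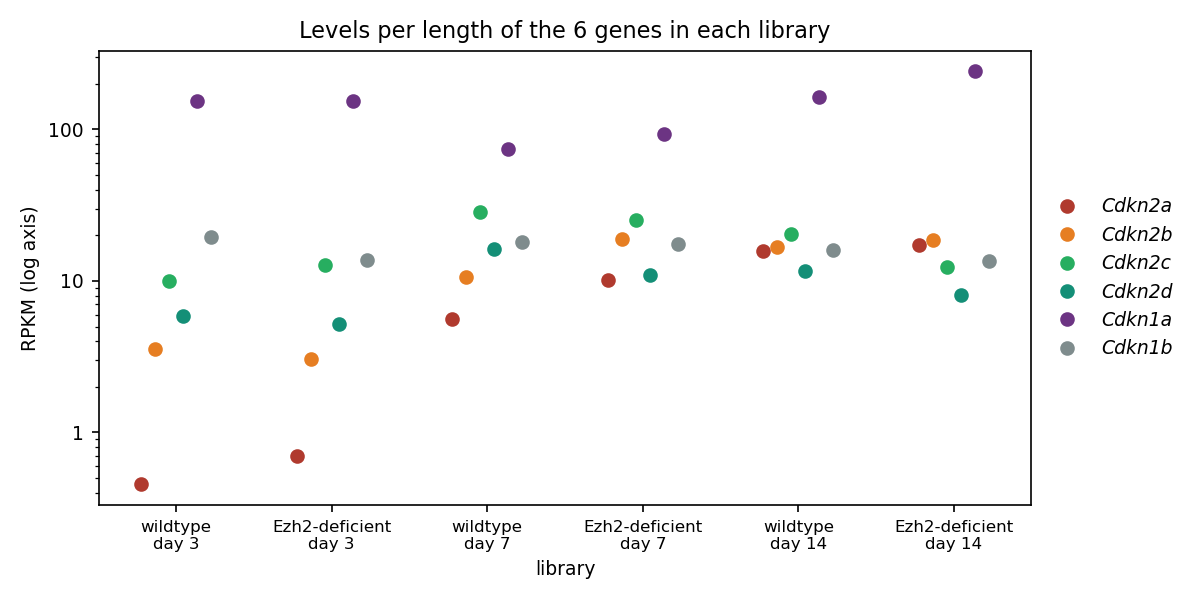
RPKM (log axis) of the 6 genes in each library, drawn side by side within a library. Cdkn1a is on top throughout, and the other 5 genes spread from 0.455 to 19.4 RPKM in wildtype at day 3 and lie between 8.09 and 20.5 RPKM in both libraries of day 14.

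Of the genes around Cdkn2a that could be tested, Cdkn2b alone also passed as higher at day 14 than at day 3. The table has 25 genes within 500 kb, of which 6 passed the filter, and the 19 others, among them the type I interferon cluster, stayed at or below 0.188 CPM. Mtap, which encodes a methionine salvage enzyme and is the next gene on one side, was 69.8, 67.6 and 57.4 CPM in wildtype and 67.0, 66.9 and 51.8 CPM in Ezh2-deficient libraries. It fell slightly by day 14 (-0.33 ± 0.08, log2, SE; adjusted p = 0.0239 by edgeR). Dmrta1, a DM-domain gene on the other side, fell by 3.26 on the log2 scale (adjusted p = 0.00183), from 2.82 and 3.98 CPM at day 3 to 0.418 and 0.292 CPM at day 14. Mir31 and Gm12603, at most 0.19 CPM in any library, did not pass (adjusted p = 0.308 and 0.622). None of the 6 tested genes passed between genotypes (adjusted p from 0.269 to 0.9996).

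**Figure D4:**
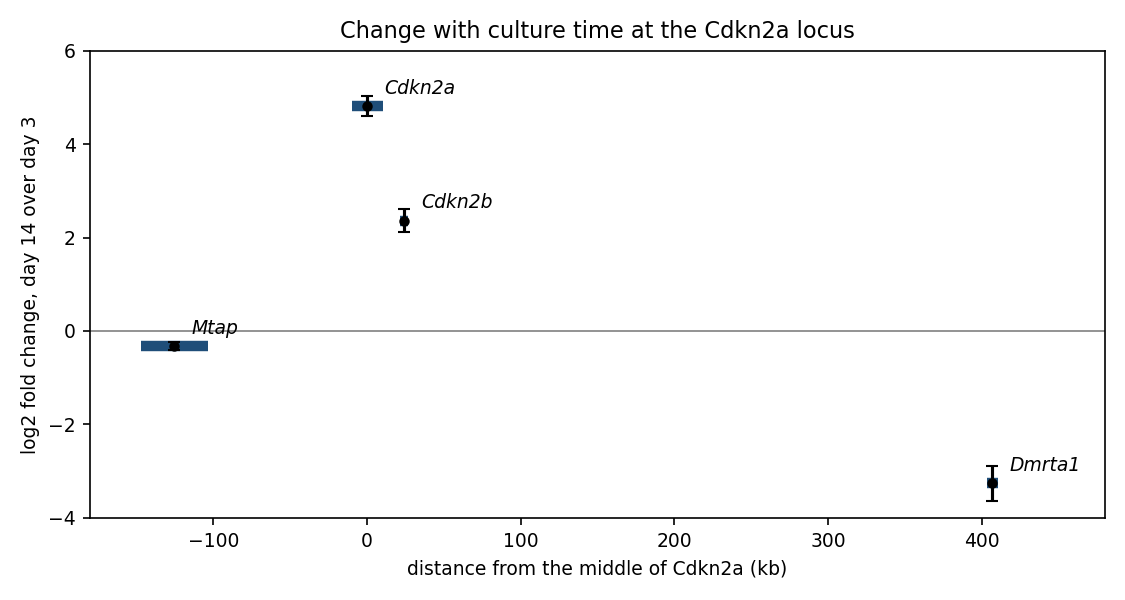
Log2 fold change of day 14 over day 3 (± SE as bars) against distance in kb from the middle of Cdkn2a, with blue bars as wide as each gene. Cdkn2a and Cdkn2b are above 0 at 4.81 and 2.36, Mtap is just below 0 and Dmrta1 is at -3.26.

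Of the other genes named as CDK inhibitors, Cdkn1c, which encodes KIP2 and is the CIP/KIP gene best known in growth plate cartilage, fell with time. It was 488, 573 and 182 CPM in wildtype and 784, 348 and 127 CPM in Ezh2-deficient libraries at days 3, 7 and 14. Both day 14 libraries were the lowest, and the Ezh2-deficient library was the higher one at day 3 only. Day 14 was below day 3 by -2.08 ± 0.35 (log2, SE; adjusted p = 0.00661 by edgeR). Cdkn3, a phosphatase of CDKs that is made in dividing cells, was 3.55, 16.1 and 9.99 CPM in wildtype and 4.76, 8.13 and 3.69 CPM in Ezh2-deficient libraries. Its genotype ratio went from 1.34 at day 3 (95% interval 1.06 to 1.71) to 0.505 at day 7 (0.439 to 0.58) and 0.369 at day 14 (0.29 to 0.466). Neither gene passed for the shared difference (adjusted p = 0.812 and 0.479) or for its trend with day (0.277 and 0.0935).

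The targets of these inhibitors and the genes that control them were compared at day 14 against day 3, where 23.2% of all genes tested were called higher and 22.4% lower and their median was -0.02 on the log2 scale. Of 12 G1 cyclins and partner kinases, 2 were higher and 4 lower, close to these shares, with a median of -0.25. Ccnd1, the cyclin D1 gene, was 73.4, 234 and 342 CPM in wildtype and 155, 320 and 362 CPM in Ezh2-deficient libraries, a rise of 1.71 ± 0.24 over the whole span (log2, SE; adjusted p = 0.00347 by edgeR). Ccnd2 and Ccnd3, which encode the other D-type cyclins, fell by 0.77 and 0.81 on the log2 scale (adjusted p = 0.00865 and 0.00895), as did Mnat1, an assembly factor of the CDK-activating kinase, by 0.61 (0.00398). Of 13 genes of the RB family and E2F factors, 5 were higher and 2 lower at day 14, against 23.2% and 22.4% of all genes, with a median of 0.30. Among the 5 were Rb1 (1.19 ± 0.20, adjusted p = 0.00627), Rbl2 (0.59, 0.00687), E2f2 (1.56, 0.00123) and the E2F partner Tfdp2 (0.71, 0.00506). Between genotypes 0 of these 25 genes passed. The smallest p values in the 2 groups were those of Cdk2 (-0.27, adjusted p = 0.2996), Ccnd1 (0.53, 0.34), Rbl1 (-0.396, 0.267) and Tfdp1 (-0.15, 0.409).

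Proliferation markers, genes made by cells in S phase and mitosis, had genotype ratios that changed sign with day. Of 24 such genes, 24 were above 0 at day 3 (median log2 ratio 0.26), 24 below 0 at day 7 (median -0.60) and 24 below 0 at day 14 (median -1.06), while the median of all genes tested was 0.00 on each day. The trend per doubling of day was called lower in edgeR for 11 of 24, against 0.553% of all genes, among them Mki67 (-0.75, adjusted p = 0.044), Top2a (-0.74, 0.044) and Ccnb1 (-0.99, 0.044), which are named here after their values were seen. All 11 were lost with a filter of at least 1 CPM in 3 libraries or with counts halved to fragments, where edgeR called 0 genes of any kind. At day 7 against day 3, 17 of 24 were called higher, against 19.5% of all genes, with a median of 1.26 on the log2 scale. At day 14 against day 3, 0 of 24 were called higher and 1, Mcm2 of the replicative helicase, lower (-0.61, adjusted p = 0.0286), against 23.2% and 22.4% of all genes. The 2 genotypes went in opposite directions here. Within wildtype libraries 23 of 24 were higher at day 14 than at day 3 (median log2 ratio 1.08). Within Ezh2-deficient libraries 23 of 24 were lower (median -0.36). The markers with the smallest p for the shared difference were Tyms (-0.54, adjusted p = 0.356) and Mcm6 (-0.37, 0.377), and 0 of 24 passed, as did 0.0123% of all genes. Cdkn2c, Cdkn1c and Cdkn3 had the same order of signs over the days as these markers. Whether the share of dividing cells has a part in their values was not tested.

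**Figure D5:**
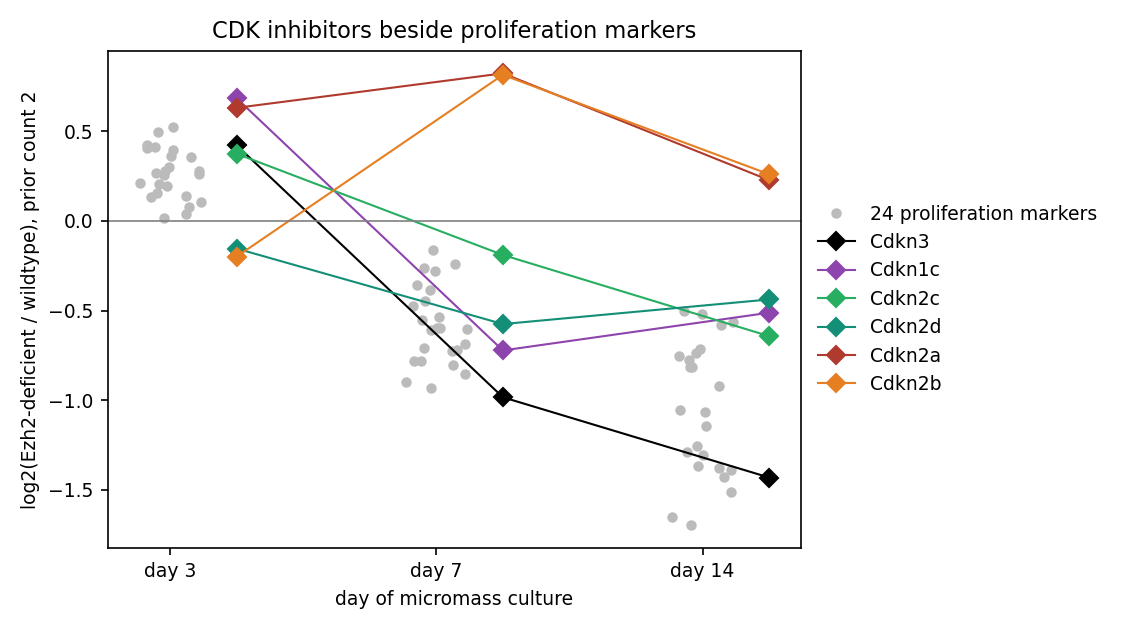
Log2 ratio of Ezh2-deficient to wildtype (prior count 2) by day for 24 proliferation markers (grey, 1 point per gene, spread sideways for visibility) and for 6 inhibitor genes (coloured diamonds joined over days). The grey points are all above 0 at day 3 and all below 0 at days 7 and 14, Cdkn2c, Cdkn1c and Cdkn3 cross 0 in the same direction, and Cdkn2a stays above 0.

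Known regulators of the inhibitors were compared in the same way. A list of 13 tested genes held regulators of the INK4 genes and also Mtap, the methionine salvage gene beside Cdkn2a. Of these 13, 2 were higher and 5, Mtap among them, lower at day 14, against 23.2% and 22.4% of all genes. The median log2 fold change of the list was -0.23. Tbx2, a T-box repressor of Cdkn2a, was 1.18, 3.43 and 21.4 CPM in wildtype and 2.53, 6.35 and 27.7 CPM in Ezh2-deficient libraries, a rise of 3.80 ± 0.23 over the whole span (log2, SE; adjusted p = 0.000263 by edgeR). Its paralogue Tbx3 rose by 1.04 (adjusted p = 0.0138). Id1, which opposes ETS activators of Cdkn2a, and Ets2, one of these activators, fell by 1.17 and 0.59 on the log2 scale (adjusted p = 0.00431 and 0.0104). Tbx2 (0.76, adjusted p = 0.197) and Kdm6a, a demethylase that removes the Polycomb mark (-0.17, 0.409), had the smallest p between genotypes, and 0 of 13 passed.

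Of 10 mediators of TGF-beta signalling to Cdkn2b and Cdkn1a, 3 were higher and 2 lower at day 14, near the 23.2% and 22.4% of all genes, with a median log2 fold change of 0.14. Tgfb1, a ligand, rose from 29.2 and 24.0 CPM to 100.5 and 94.1 CPM (1.88 ± 0.09, log2, SE; adjusted p = 0.000178 by edgeR). Smad3, which carries the signal to the nucleus, rose by 1.08 (adjusted p = 0.00093) and Tgfb3 by 0.89 (0.0021), while Myc, a repressor of both inhibitor genes, fell by 0.86 (0.00472). Between genotypes 0 of 10 passed, with Tgfbr1 (0.22, adjusted p = 0.313) and Tgfb1 (-0.20, 0.333) at the smallest p.

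The p53 pathway controls Cdkn1a. Of 8 genes for p53 and its regulators, 1 was higher and 2 were lower at day 14, near or below the 23.2% and 22.4% of all genes. Trp53 itself fell by 0.51 on the log2 scale (adjusted p = 0.00794 by edgeR), as did the checkpoint kinase gene Atr (0.51, 0.0285), and Usp7, a deubiquitinase of MDM2 and p53, rose by 0.27 (0.0485). Of 22 p53 target genes, 7 were higher and 8 lower at day 14 than at day 3, against 23.2% and 22.4% of all genes, with a median log2 fold change of -0.11. At day 7 against day 3, 3 were higher and 8 lower, against 19.5% and 16.6% of all genes, with a median of -0.42. Zmat3 (0.80, adjusted p = 0.00214), Phlda3 (0.69, 0.00202) and Polk (0.85, 0.00164) were higher at day 14, whereas the stress cytokine gene Gdf15 was lower (-2.71 ± 0.27, 0.00116). Between genotypes 0 of the 22 and 0 of the 8 passed, with Ddit4 (-0.42, adjusted p = 0.357) and Sesn2 (0.36, 0.358) at the smallest p among targets and Chek1 (-0.56, 0.253) and Atr (-0.28, 0.377) among regulators.

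For KIP1 the genes of its turnover and of FOXO control were compared. Of 8, 3 were higher and 2 lower at day 14 than at day 3, against 23.2% and 22.4% of all genes, with a median log2 fold change of 0.01. Skp2, the ubiquitin ligase subunit that recognises KIP1, rose by 0.70 ± 0.13 (log2, SE; adjusted p = 0.00882 by edgeR), Foxo3 rose by 0.53 (0.0185), and Foxo4 and Rbx1, a RING subunit of the ligase, fell by 0.81 and 0.42 (0.00187 and 0.0119). Between genotypes Foxo4 (-0.31, adjusted p = 0.221) and Rbx1 (-0.14, 0.462) had the smallest p, and 0 of 8 passed. Of 15 senescence-associated genes, 5 were higher and 0 lower at day 14, against 23.2% and 22.4% of all genes, with a median log2 fold change of 1.04. Among the 5 were Glb1, which encodes the lysosomal beta-galactosidase used as a stain (1.18 ± 0.08, adjusted p = 0.000366), Timp1 (2.29, 0.000176) and Igfbp3 (2.65, 0.00112). Others of this list did not pass at day 14 against day 3. They included Cxcl1, Ccl2 and Mmp3 (edgeR adjusted p = 0.956, 0.0637 and 0.124) and Lmnb1 and Hmgb2 (0.530 and 0.149). Il6, Il1a, Il1b and Cxcl15 stayed under 1 CPM in every library. Between genotypes 0 of 15 passed, with Igfbp3 (0.98, adjusted p = 0.178) and Mmp3 (-1.18, 0.332) at the smallest p.

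By pattern over the 6 libraries, other genes of the table were closer to Cdkn2a than its neighbour was. Likeness was the root mean square difference of log2 CPM centred on each gene, among 12189 genes. It was not scaled, so the size of a change counts as well as its shape. From day 3 to day 14 Cdkn2a rose by 4.81 and Cdkn2b by 2.36 on the log2 scale. Closest to Cdkn2a were Fgl2 (0.27), Dio2 (0.28) and Pira6 (0.29), which encode a secreted fibrinogen-like protein, a thyroid hormone deiodinase and a leukocyte receptor, and Cdkn2b ranked 581 with a difference of 1.02. Pira6 lay below the floor of 3 fragments at day 3 (0.030 CPM in wildtype and 0.054 in Ezh2-deficient), so its day 3 values are uncertain. Closest to Cdkn2b were Sult5a1 (0.14), Plekhg4 (0.15) and Thsd7a (0.15). Plekhg4, for example, was 4.82, 14.0 and 26.2 CPM in wildtype and 5.60, 28.5 and 32.8 CPM in Ezh2-deficient libraries. Closest to Cdkn1a were Klhl33 (0.14), Fyn (0.17), a Src-family kinase gene, and Mfsd7c (0.18). Fyn shared the dip at day 7, with 68.7, 33.5 and 66.1 CPM in wildtype and 76.2, 47.5 and 139 CPM in Ezh2-deficient libraries.

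Markers of other cell types moved with the same comparisons as the inhibitors. Between day 3 and day 14, when 23.2% of all genes rose and 22.4% fell, all 6 of 6 macrophage markers rose and their summed level went from 139 and 100.5 CPM to 1763 and 2506 CPM (wildtype and Ezh2-deficient), 6 of 6 having also risen at day 7, against 19.5% of all genes. All 7 of 7 osteoblast markers rose, from 101.5 and 196 CPM to 9756 and 32740 CPM, and 5 of 6 fibroblast markers, from 1957 and 2597 CPM to 43220 and 70270 CPM, while 8 of 8 cartilage markers fell. Most of these sums was 1 gene each. At day 14 Col1a1 was 34580 and 62970 CPM of the fibroblast sums, and Ibsp 8245 and 29940 CPM of the osteoblast sums. All 4 of 4 markers of hypertrophic cartilage rose, with sums from 853 and 1043 CPM at day 3 to 8666 and 4260 CPM at day 14. Between genotypes no marker passed. Osteoblast, adipocyte and smooth muscle markers had positive log2 fold changes in 7 of 7, 6 of 6 and 6 of 6. Their medians were 1.14, 1.37 and 0.76, against -0.002 for all genes tested. Fibroblast markers were positive in 5 of 6 (median 0.33), macrophage markers in 3 of 6 and hypertrophic cartilage markers in 2 of 4. Cartilage markers were negative in 7 of 8 (median -0.51), and tested osteoclast and endothelium markers in 3 of 4 each (-0.72 and -0.25). Osteoblast sums at days 3, 7 and 14 were 101.5, 163 and 9756 CPM in wildtype and 196, 577 and 32740 CPM in Ezh2-deficient libraries. Adipocyte and smooth muscle sums were highest at day 7. For adipocytes they were 16.5, 170 and 65.6 CPM in wildtype and 82.3, 338 and 122 CPM in Ezh2-deficient libraries. For smooth muscle they were 70.9, 342 and 234 CPM in wildtype and 188, 505 and 270 CPM in Ezh2-deficient libraries. Pecam1, Cdh5 and Emcn of endothelium, Calcr and Oscar of osteoclasts and Myh11 of smooth muscle stayed under 1 CPM, and no marker was at 0 in all libraries. At day 14 against day 3, 3 of 4 tested osteoclast markers (Atp6v0d2, Acp5 and Ctsk) were called higher and 0 lower. Of 4 tested endothelium markers 1 (Kdr) was called higher and 1 (Pecam1) lower, against 23.2% and 22.4% of all genes. The part of these cells in the levels of the inhibitors was not tested, and in bulk RNA more cells of a type cannot be told apart from more RNA per cell.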

How the data were processed

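RNA sequencing counts of 6 libraries were analysed. The counts were deposited by the authors as whole numbers per gene, not normalized. The deposited RPKM values follow from the same counts, the coding length and a library total that is larger than the summed counts. They were used to order genes within a library, to set Cdkn2a against Cdkn1a and as an alternative for ratios of 2 libraries. Per the submitters' processing notes, CASAVA 1.9, TopHat 12.0.6, HTSeq and mm10 were used. Those notes as seen here do not say for what. The coding length column was deposited by the authors as another number per gene and was used only as printed. The annotation, strandedness and filters are not given in the sources used here.

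Genes were filtered by filterByExpr (minimum count 10, day as the group) and tested with edgeR 4.0.16 in R 4.3.3 by its quasi-likelihood test (two-sided), adjusting p-values over 16280 genes by Benjamini-Hochberg and a threshold of 0.05. A result is said to pass below it. One model held day and genotype (2 residual degrees of freedom), and a second added genotype times centred log2 day (1 residual degree). DESeq2 1.42.0 and limma-voom (limma 3.58.1) were alternatives. SE is the absolute log2 fold change over the square root of F. Ratios of 2 libraries have exact (Clopper-Pearson) intervals from fragments. The fits were tested on simulated data. Other scalings, filters, dispersions and left-out days were tried as alternatives.

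All genes of the 6, up to 4 genes per list that passed or the 2 with the smallest p, the 3 nearest patterns and the neighbours within 500 kb were named, except 1 gene that is not reported here. The members and lists were chosen with earlier results of these data known.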

Additional observations from a re-analysis of the deposited data

Results flagged for a closer look

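Cdkn2c, Cdkn1c and Cdkn3 had Ezh2-deficient to wildtype ratios whose counting intervals lay above 1 at day 3 and below 1 at days 7 and 14. The log2 ratio changed from day 3 to day 14 by -1.02 for Cdkn2c, -1.20 for Cdkn1c and -1.86 for Cdkn3. Each day has 1 library per genotype, so the difference between these days was not tested as such. The trend over the 3 days did not pass in edgeR (adjusted p = 0.0957, 0.277 and 0.0935).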

How the results depend on the processing

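Every call for the 6 genes held in edgeR under the other scalings, filters, robust dispersions and halved counts and in DESeq2, with the exception of limma-voom for Cdkn2a at day 14 against day 7 (1.22, adjusted p = 0.105), which left 1 of 6 called there. No alternative called any of the 6 between genotypes, where the lowest adjusted p values were 0.0592 (Cdkn2d) and 0.0688 (Cdkn1a), both without the day 3 pair, and 0.107 for Cdkn2a (DESeq2) and Cdkn2b (without the day 3 pair). Over these alternatives the shared difference of Cdkn2a ranged from 0.39 to 0.76. Cdkn2c turned to 0.093 without the day 14 pair. Cdkn1b at day 7 against day 3 turned to 0.14 with total counts, which moved the median of all genes to 0.19, and to 0.13 within Ezh2-deficient libraries. Cdkn2c at day 14 against day 3 was -0.063 within Ezh2-deficient libraries. Cdkn2a at day 7 against day 3 was 3.40 within wildtype libraries. The day 14 log2 ratio of Cdkn1a was 0.56 with total counts and 0.55 from RPKM, against 0.65.

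Over all genes the edgeR count for genotype, 2, was 9 with RLE factors (6 higher, 3 lower), 9 without a filter (6 and 3), 8 with robust dispersions (5 and 3), 1 with the CPM filter, 0 with total counts (2042 at an unadjusted p under 0.05) and 0 without the day term (212). It was 607 in DESeq2 and 40 in limma-voom, and from 0 to 863 with a day's pair left out, 863 being without day 3 and 0 without day 7 or day 14 (828 and 1601 unadjusted). The trend count, 100, was 270 with total counts, 247 without a filter, 342 in DESeq2 and 0 with the CPM filter or halved counts (1879 and 2095 unadjusted). For day 14 against day 7 DESeq2 called 1944 genes, against 923. With total counts 4316 genes were higher and 1250 lower at day 7 than at day 3, against 3172 and 2709, and 383 higher and 482 lower at day 14 than at day 7, against 550 and 373. No paired analysis by replicate number was possible because the labels carry none. Day was the block. With 1 library per genotype and day, no value within a day has a replicate check.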
